A study of Mus musculus with 8 samples.

Results

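The 9 non-collagen cartilage genes described here were followed in whole embryonic mouse lung: the transcription factor genes Sox5 and Sox6, the aggrecan gene Acan and its link protein gene Hapln1, the matrilin genes Matn1, Matn3 and Matn4, and the membrane protein genes Snorc and Cnmd. They were chosen by symbol as genes of the cartilage of trachea and main bronchi, and all 9 were found among the 55401 genes of the deposited table. RNA sequencing covered 8 lung libraries from embryos at E13.5. Of these, 4 were labelled cre control and 4 carried the combination that the labels write as Tbx4tetOcre and MyrfE6, called mutant here. The labels do not say what else the controls carried, which cells express the cre recombinase, what the E6 of the allele stands for, how many embryos made a library, or whether trachea and main bronchi were kept with the lung. Since separate embryos or litters are not recorded for the replicates, the p-values describe library-to-library spread, which may be technical.

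Cartilage is built by chondrocytes, which arise where mesenchymal cells condense and switch on Sox9. SOX9, together with SOX5 and SOX6, activates the genes of the cartilage matrix, in which fibrils of collagens II, IX and XI hold large aggregates of aggrecan, and matrilins link the fibrils to other matrix components. In the airways this tissue forms the rings of the trachea and the plates of the main bronchi, while the lung inside them has none. Several of these genes are also used outside cartilage, so a level in whole lung does not by itself name the cell that made it.

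Total counts lay between 17799899 and 48679134 per library, and mutant replicate 2 was the deepest. The targeted gene Myrf lay between 107 and 120.5 CPM (counts scaled to library size) in controls and between 84.4 and 92.4 CPM in mutants, counted over all its exons. Transcripts of 4 Y-linked genes summed to at most 0.0565 CPM in control replicates 2 and 3, to 73.1 and 76.6 CPM in control replicates 4 and 1, and to 64.4 to 143 CPM in the mutants. The sex of the embryos is not given in the labels. The group comparison was also run in the 6 libraries with Y-linked counts above 1 CPM, which are control replicates 1 and 4 and all 4 mutants. They are called the 6 libraries with Y-linked counts below.

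The cartilage genes spanned a wide range of levels, from Hapln1 and Matn4 at the top to Snorc and Matn1 with at most 2 counts in any library. Levels of different genes were compared as TPM, which divides counts by exon length and scales them within a library. Hapln1 led with 28.4 ± 1.65 TPM in controls (SD, n = 4), followed by Matn4 with 23.7 ± 1.48 TPM. The 2 did not overlap in the controls, at 26.3 to 30.3 and 21.8 to 25.2 TPM, but did in the mutants, at 24.8 to 29.2 and 22.0 to 27.8 TPM. They were the only members above the middle of the tested genes: 59.9% of 15788 tested genes lay below Hapln1 and 57.2% below Matn4. Cnmd came next at 6.15 ± 0.831 TPM in controls, then Sox6 at 3.28 ± 0.108 TPM and Sox5 at 2.52 ± 0.0871 TPM. In the controls each of these was separated from its neighbour, and in the mutants Sox5 and Sox6 overlapped. Matn3 followed with 0.889 ± 0.423 TPM and Acan with 0.217 ± 0.0351 TPM in controls, and 0.602% of the tested genes lay below Acan. Snorc and Matn1 stood last. Their ranges overlapped each other, and that of Snorc also overlapped that of Acan, in both groups.

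**Figure D1:**
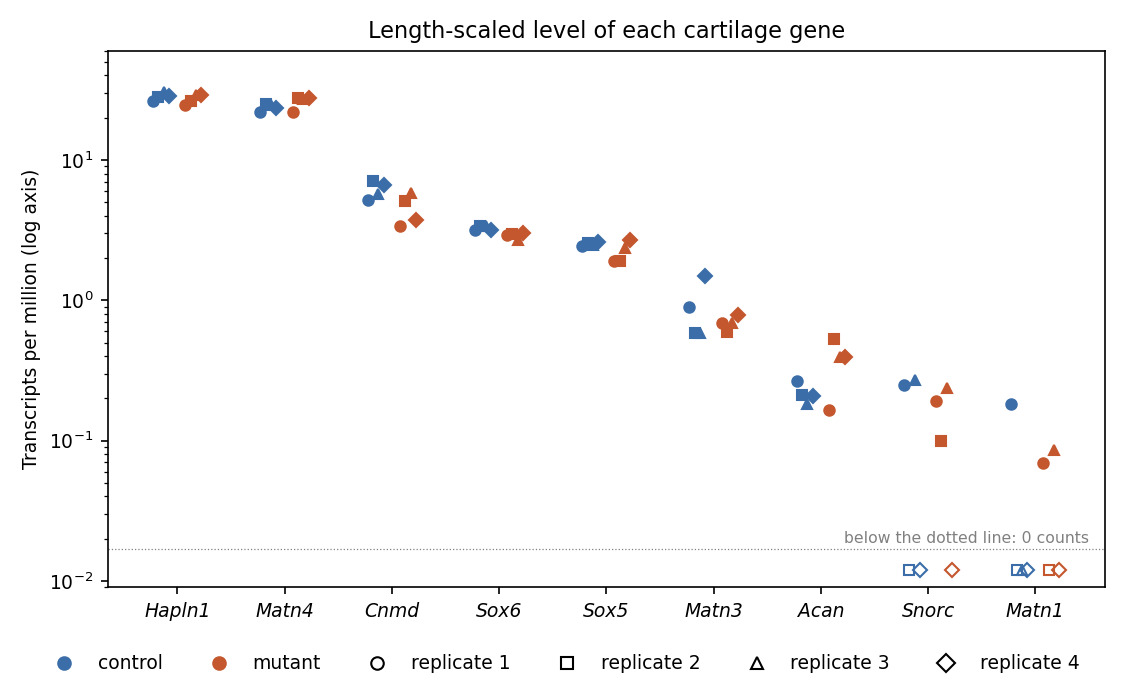
TPM on a log axis for each of the 9 cartilage genes, 1 symbol per library, with open symbols below the dotted line for libraries with 0 counts. Hapln1 and Matn4 lie between 21.8 and 30.3 TPM in all 8 libraries, while Acan, Snorc and Matn1 lie below 0.6 TPM.

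The transcription factor genes Sox5 and Sox6 were present in all libraries and did not pass the test. Their proteins bind DNA as partners of SOX9 on cartilage genes, and both genes also act outside cartilage, among other places in the nervous system. Sox6 measured 13.8, 14.3, 14.5 and 13.7 CPM in control replicates 1 to 4 and 12.3, 12.6, 11.3 and 12.9 CPM in mutant replicates 1 to 4. Every mutant library lay below every control. Its log2 fold change, mutant over control, was -0.19 (95% interval -0.35 to -0.04, adjusted p = 0.226 in edgeR's quasi-likelihood test over all genes), a difference of about 0.875-fold. The groups were separate in either direction for 7.37% of the 15788 tested genes. In 3.31% the mutants were higher, and in the rest of the 7.37% they were lower, as for Sox6. Among the 7 tested members Sox6 was the 1 gene with separate groups. Sox6 (ENSMUSG00000051910.13) spans bases 115470872 to 116038796 of chromosome 7, minus strand, on GRCm38.

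Sox5 measured 10.1, 10.5, 10.3 and 10.9 CPM in control replicates 1 to 4 and 7.85, 7.89, 9.61 and 11.2 CPM in mutant replicates 1 to 4. Mutant replicate 4 was the highest of all libraries and the other 3 mutants were below all controls, so the groups overlapped. The controls varied by 3.26% of their mean, less than the 7.28% that counting error alone gives at 183 to 194 counts, while the mutants varied by 17.5%. The log2 fold change was -0.22 (95% interval -0.44 to 0.01, adjusted p = 0.375, edgeR). Mutant replicates 1 and 2, the lowest for Sox5, were also the libraries with the most Y-linked transcripts, at 133 and 143 CPM. With the summed Y-linked level (log2) as a covariate the log2 fold change of Sox5 was -0.19 (adjusted p = 0.672), and in the 6 libraries with Y-linked counts it was -0.22 (adjusted p = 0.633). Sox5 (ENSMUSG00000041540.16) spans bases 143828425 to 144781977 of chromosome 6, minus strand.

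Aggrecan and its link protein, which are joined in cartilage matrix, were measured at very different levels. Acan encodes the main proteoglycan of cartilage, and Hapln1 encodes the protein that fixes it to hyaluronan. Per exon length, Hapln1 was 98.7 to 165 times Acan in the controls and 49.5 to 150 times in the mutants. Hapln1 measured 45.3, 47.5, 51.5 and 49.3 CPM in control replicates 1 to 4 and 42.0, 44.1, 48.9 and 49.5 CPM in mutant replicates 1 to 4. The groups overlapped, and the log2 fold change was -0.08 (95% interval -0.20 to 0.05, adjusted p = 0.624, edgeR). That interval spans a change from 0.873-fold to 1.03-fold, the narrowest of the members. Hapln1 (ENSMUSG00000021613.9) spans bases 89539796 to 89611652 of chromosome 13, plus strand.

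Acan was counted 11, 8, 7 and 8 times in control replicates 1 to 4 and 9, 55, 17 and 15 times in mutant replicates 1 to 4. In CPM these were 0.581, 0.451, 0.395 and 0.451 in controls and 0.355, 1.13, 0.83 and 0.844 in mutants. Mutant replicates 2, 3 and 4 lay above all controls and mutant replicate 1 below all of them. The log2 fold change was 0.79 (95% interval 0.05 to 1.53, adjusted p = 0.322, edgeR), the largest value among the members and one that did not pass. It rested on few counts: the exact Poisson interval of mutant replicate 1 was 0.162 to 0.674 CPM and that of control replicate 1 was 0.29 to 1.04 CPM, which covers counting error only. The filter on low counts was reached by 3 mutant libraries and 1 control, so Acan entered the test mainly through the group where it was higher. Without mutant replicate 2 the log2 fold change was 0.48 (adjusted p = 0.728), and without mutant replicate 1 it was 1.03 (adjusted p = 0.13). Acan (ENSMUSG00000030607.7) spans bases 79053483 to 79115099 of chromosome 7, plus strand.

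The 3 matrilins parted in level. Matrilins are multi-domain proteins of the matrix: Matn1 and Matn3 are made mainly in cartilage, and Matn4 is also made in other connective tissue and in the nervous system. Per exon length, Matn4 was 15.8 to 43.0 times Matn3 in the controls and 32.1 to 46.5 times in the mutants. Because these paralogs differ most in level, their promoters are shown, each from 250 bases before to 50 after a RefSeq start on GRCm38.p6, in lower case with CG dinucleotides in capitals. Matn1 is chr4:130944135-130944434 on the plus strand, Matn3 is chr12:8947679-8947978 on the plus strand, and Matn4 has 2 windows on the minus strand, chr2:164405111-164405410 and chr2:164404769-164405068.
Matn1: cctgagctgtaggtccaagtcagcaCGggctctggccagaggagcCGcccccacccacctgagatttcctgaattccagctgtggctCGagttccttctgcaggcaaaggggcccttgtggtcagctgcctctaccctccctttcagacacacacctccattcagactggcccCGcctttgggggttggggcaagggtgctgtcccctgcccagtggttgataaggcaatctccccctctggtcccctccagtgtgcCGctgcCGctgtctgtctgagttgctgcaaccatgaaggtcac
Matn3: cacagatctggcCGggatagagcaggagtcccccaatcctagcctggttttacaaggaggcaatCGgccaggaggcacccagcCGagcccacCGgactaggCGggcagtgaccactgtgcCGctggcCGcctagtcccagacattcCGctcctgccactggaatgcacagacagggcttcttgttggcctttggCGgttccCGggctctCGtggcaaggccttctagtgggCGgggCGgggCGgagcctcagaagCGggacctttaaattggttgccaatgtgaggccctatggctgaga
Matn4, first window: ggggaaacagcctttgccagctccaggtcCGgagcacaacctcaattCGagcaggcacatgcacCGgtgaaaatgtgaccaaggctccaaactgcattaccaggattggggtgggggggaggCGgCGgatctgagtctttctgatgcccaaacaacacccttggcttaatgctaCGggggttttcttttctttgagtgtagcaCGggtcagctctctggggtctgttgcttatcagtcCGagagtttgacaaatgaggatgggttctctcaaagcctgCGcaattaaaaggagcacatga
Matn4, second window: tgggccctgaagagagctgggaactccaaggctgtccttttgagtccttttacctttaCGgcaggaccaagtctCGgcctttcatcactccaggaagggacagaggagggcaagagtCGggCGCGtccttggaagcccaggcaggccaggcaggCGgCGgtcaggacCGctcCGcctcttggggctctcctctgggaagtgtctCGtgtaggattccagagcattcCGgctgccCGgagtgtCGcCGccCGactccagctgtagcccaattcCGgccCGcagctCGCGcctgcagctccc
They held 6 CG dinucleotides in Matn1, 15 in Matn3, and 9 and 19 in Matn4, where the median of 32851 promoter windows was 7. The letters ACAATG and ACAAAG, read on both strands as forms of the site that SOX proteins bind, were in none of these 4 windows. Of all promoter windows 28.6% held at least 1 of them. Among the 8 members with a promoter window, Sox5 and Sox6 held a match and the others did not, which says only that these letters are not in those windows. Sox6 has 6 windows, Matn4 has 2 and each other member has 1, so their chances of a match were unequal. The 28.6% is a share of windows and not of genes. Snorc had no entry.

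Matn4 measured 32.9, 37.5, 36.5 and 35.1 CPM in control replicates 1 to 4 and 32.6, 40.9, 40.0 and 41.4 CPM in mutant replicates 1 to 4. The last 3 mutants lay above all controls and mutant replicate 1 below all of them, the same split as for Acan. The exact Poisson interval was 30.4 to 34.9 CPM in mutant replicate 1 and 30.4 to 35.6 CPM in control replicate 1. The place of mutant replicate 1 below the controls thus lay within counting error. The log2 fold change was 0.13 (95% interval -0.02 to 0.27, adjusted p = 0.464, edgeR), and it was 0.20 without mutant replicate 1 (adjusted p = 0.086). Matn4 (ENSMUSG00000016995.17) spans bases 164389393 to 164405160 of chromosome 2, minus strand.

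Matn3 was counted 15, 9, 9 and 23 times in control replicates 1 to 4 and 15, 25, 12 and 12 times in mutant replicates 1 to 4. In CPM these were 0.792, 0.507, 0.508 and 1.30 in controls and 0.591, 0.512, 0.586 and 0.675 in mutants. All mutants lay within the control range, and control replicate 4 was the highest library. The log2 fold change of -0.42 (95% interval -1.11 to 0.26, adjusted p = 0.626, edgeR) rested on that library, since it was -0.07 without it (adjusted p = 0.961). With the Y-linked level as a covariate it was -0.88 (adjusted p = 0.361). Matn3 (ENSMUSG00000020583.4) spans bases 8947929 to 8972028 of chromosome 12, plus strand.

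Matn1 was counted 2, 0, 0 and 0 times in control replicates 1 to 4 and 1, 0, 1 and 0 times in mutant replicates 1 to 4. Snorc, which encodes a transmembrane proteoglycan of cartilage, was counted 1, 0, 1 and 0 times in controls and 1, 1, 1 and 0 times in mutants. Over a whole group, Matn1 thus had 2 counts in each, and Snorc had 2 in the controls and 3 in the mutants. Both were at or under a floor of 3 counts per group, which is 0.0414 CPM over the controls and 0.0268 CPM over the mutants, so no fold change is given and a difference was not detectable at this depth. Neither gene passed the filter on low counts. Matn1 (ENSMUSG00000040533.7) spans bases 130944385 to 130955475 of chromosome 4 and Snorc (ENSMUSG00000026258.5) bases 87470271 to 87475482 of chromosome 1, both on the plus strand.

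Cnmd, which encodes chondromodulin, a membrane glycoprotein of chondrocytes that blocks the ingrowth of vessels, measured 2.80, 3.72, 3.05 and 3.55 CPM in control replicates 1 to 4. In mutant replicates 1 to 4 it measured 1.77, 2.68, 3.03 and 1.97 CPM. Mutant replicates 1, 2 and 4 lay below all controls and mutant replicate 3 lay among them. The log2 fold change was -0.46 (95% interval -0.83 to -0.08, adjusted p = 0.243, edgeR), a ratio of 0.728 that did not pass. Counting error alone gives a spread of 13.1% in the controls and 13.7% in the mutants at these counts, and the measured spreads were 13.1% and 24.95%. Cnmd (ENSMUSG00000022025.13) spans bases 79637690 to 79662170 of chromosome 14, minus strand.

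**Figure D2:**
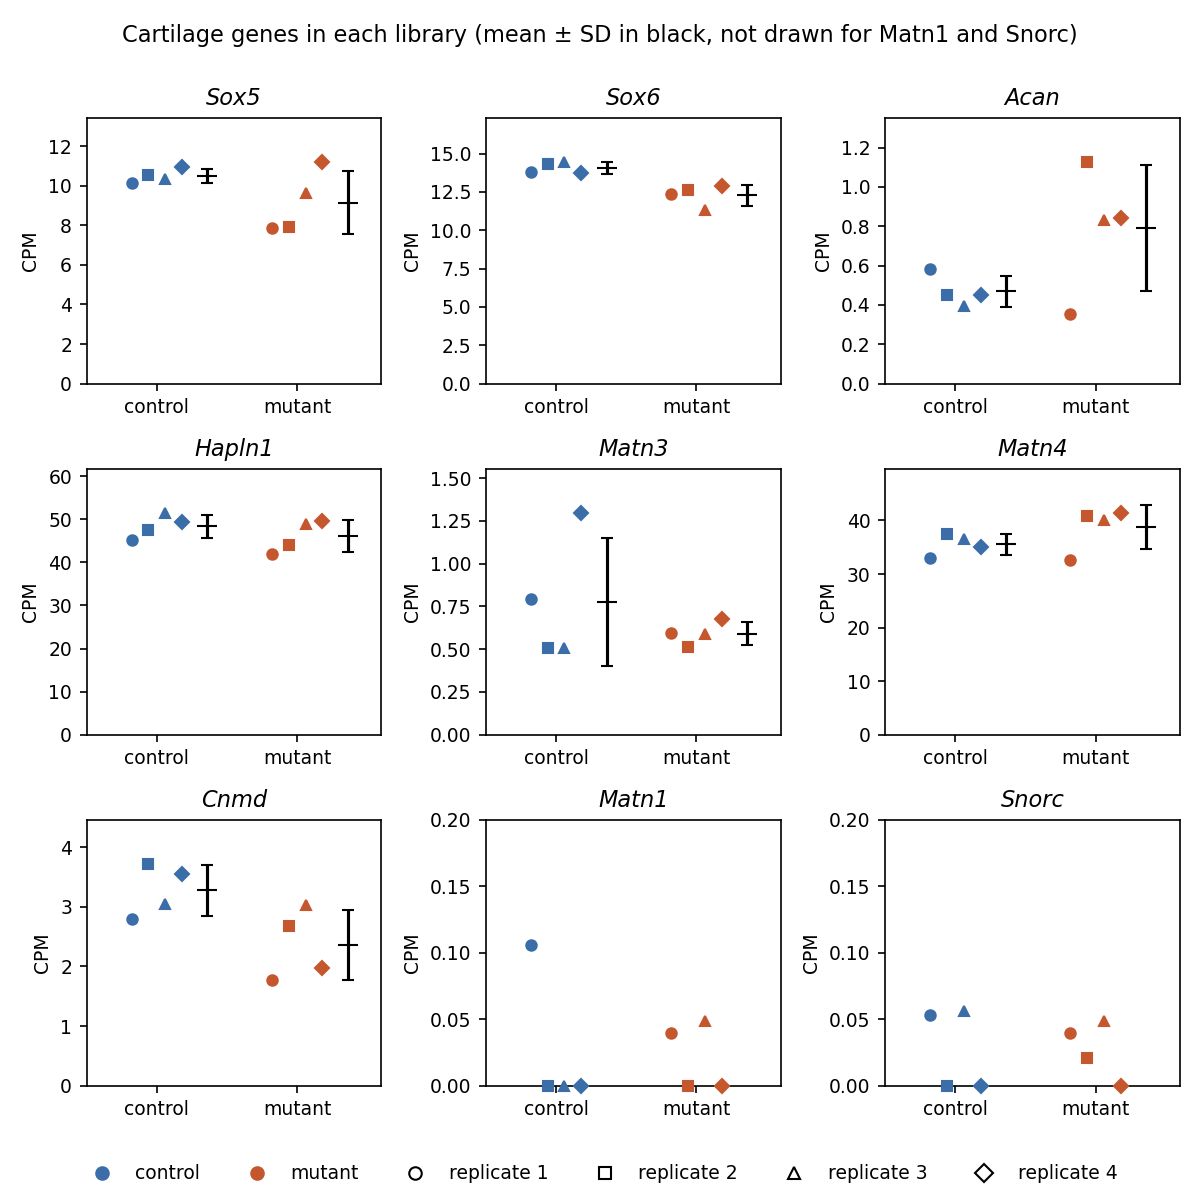
CPM of each of the 9 genes in every library, with the mean ± SD of 4 libraries in black except for Matn1 and Snorc. For Sox6 all 4 mutants lie below the controls, and for Acan and Matn4 mutant replicate 1 lies below the controls while the other 3 mutants lie above them. The low place of mutant replicate 1 for Acan and Matn4 is within counting error.

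Taking the members as a whole, none of the 7 tested passed in the mutant lung. The count was 0 in edgeR over all genes tested, where 1.49% of the 15788 genes passed (0.564% higher and 0.931% lower in the mutants). At an unadjusted p below 0.05 stood 3 members, Acan higher and Sox6 and Cnmd lower, where 13.9% of all genes did (5.89% higher and 7.99% lower). DESeq2 and limma-voom also called 0. At an unadjusted p below 0.05 they had 2 members (Sox6 and Cnmd) and 3 members (Sox5, Sox6 and Cnmd), all lower in the mutants. Acan was not among them, with an unadjusted p of 0.0904 in DESeq2 and 0.0918 in limma-voom. Among the 7, 2 values were positive and 5 negative, where 50% of all tested genes were positive. The median log2 fold change of the members was -0.19 and that of all tested genes was 6.5e-05. Acan and Matn3 had the widest intervals, at 1.03-fold to 2.89-fold and 0.464-fold to 1.2-fold. In a bulk sample, fewer cells of a type and less RNA per cell cannot be told apart.

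Other cartilage genes, from 3 lists chosen by function, ranged from abundant collagen chains to genes with almost no counts. The fibril collagen gene Col2a1 stood at 138.9 ± 4.35 CPM in the controls and 132 ± 6.64 CPM in the mutants (adjusted p = 0.387, edgeR, here and in the next values). Col9a2 stood at 65.4 ± 3.05 and 71.5 ± 4.06 CPM (adjusted p = 0.216). Col11a1 measured 61.9 ± 2.45 and 60.7 ± 4.48 CPM. Per exon length, Col9a2 at 73.1 ± 3.39 TPM, Col2a1 at 51.9 ± 1.84 TPM and Sox9 at 46.4 ± 3.59 TPM in controls all stood above Hapln1. Sox9 also marks the tips of the lung epithelium. In contrast, Col10a1, the collagen of enlarged chondrocytes, had 3 counts over all 8 libraries, Ucma, a gene of growth cartilage, had 0, and Nkx3-2, a regulator of early cartilage, had 1. Of the 35 listed genes, 26 were tested. In edgeR 0 passed, with 5 at an unadjusted p below 0.05 (3 higher and 2 lower), and DESeq2 and limma-voom called 0, each with 6 at that level.

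By list, 6 of 7 collagen genes were tested, with a median log2 fold change of -0.03. The log2 fold changes were -0.08 for Col2a1 (95% interval -0.16 to 0.00), 0.13 for Col9a2 (0.03 to 0.23) and -0.03 for Col11a1 (-0.14 to 0.08). Of 15 other matrix and enzyme genes, 11 were tested, with a median of 0.01. Fmod, the collagen-binding fibromodulin gene, stood at 345.7 ± 30.7 CPM in controls and 382 ± 31.9 CPM in mutants, Wwp2, a ubiquitin ligase gene active in chondrocytes, 82.0 ± 5.58 and 87.4 ± 5.9 CPM, and Chst11, a chondroitin sulfotransferase gene, 24.4 ± 1.55 and 24.4 ± 1.67 CPM. Of 13 regulators, 9 were tested, with a median of 0.04. Pth1r, the receptor of parathyroid hormone related protein, stood at 144 ± 6.52 and 135 ± 8.32 CPM, Fgfr3, a fibroblast growth factor receptor gene, 108 ± 6.22 and 111 ± 6.34 CPM, and Sox9 55.5 ± 3.93 and 50.1 ± 5.05 CPM.

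**Figure D3:**
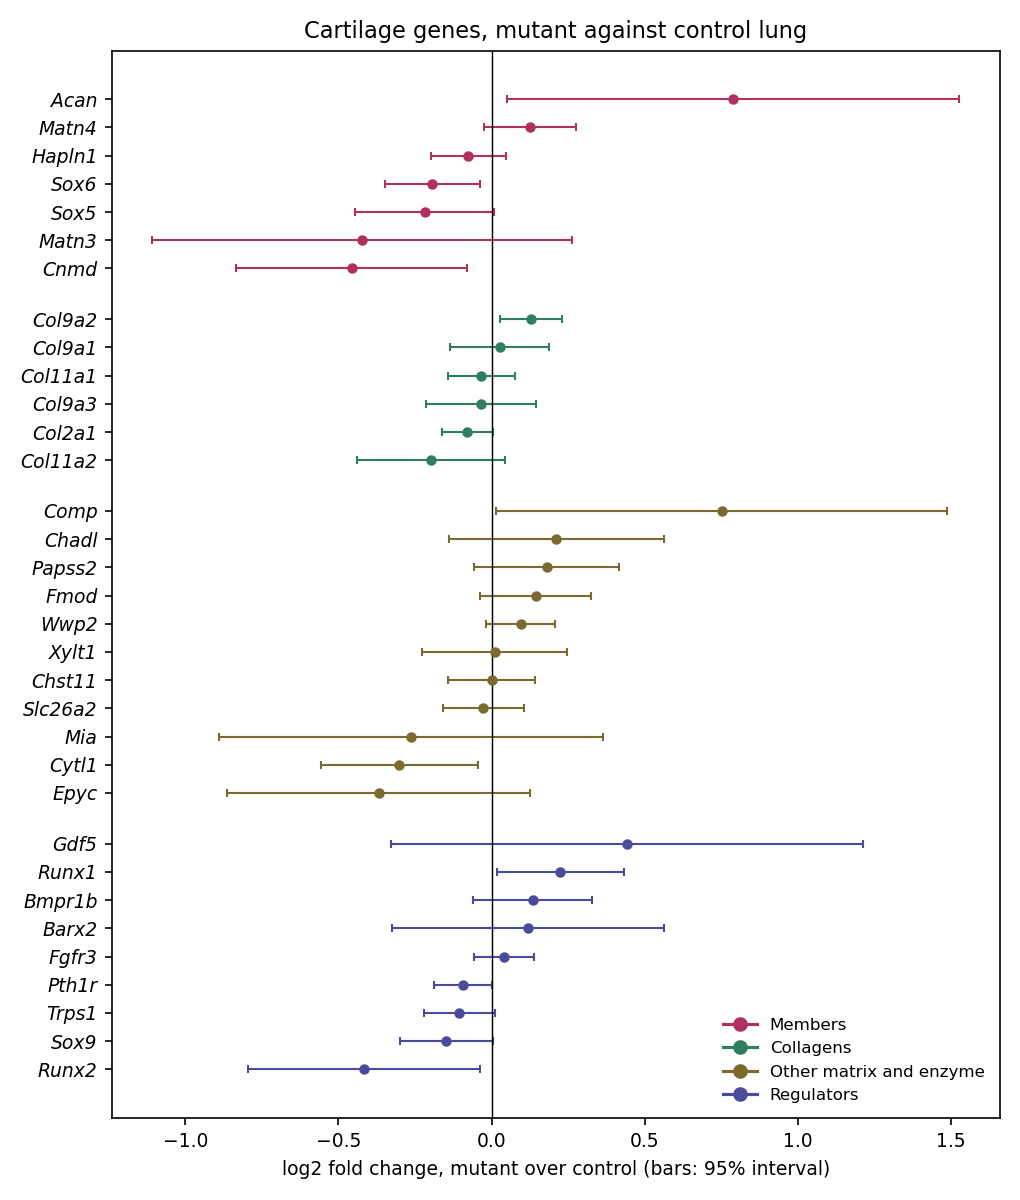
Log2 fold change, mutant over control, with its 95% interval for the 7 tested members and the 26 tested genes of 3 related lists. Acan at 0.79 and Cnmd at -0.46 lie furthest from 0 among the members, and no gene shown passed over all genes tested.

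The libraries were then compared one by one. Mutant replicate 1 was the lowest of all 8 libraries in 5 of the 7 tested members (Sox5, Acan, Hapln1, Matn4 and Cnmd), and its mean log2 shift of the members from the control mean was -0.34. The remaining mutants ranged from -0.01 to 0.03, and the controls from -0.08 to 0.13. How often mutant replicate 1 was the lowest library over all tested genes was not counted. The 5 of 7 is thus not shown to be particular to cartilage genes. For Acan and Matn4 the Poisson intervals of mutant replicate 1 and control replicate 1 overlapped, so its lowest place there lay within counting error. With its 25157303 counts mutant replicate 1 was the second deepest library. In the collagen list its shift was -0.13, also the lowest library, where the controls lay between -0.04 and 0.07. In the other related lists it was not the lowest: it stood at 0.02 for the other matrix and enzyme genes, where the controls lay between -0.07 and 0.11, and at -0.05 for the regulators, where they lay between -0.09 and 0.07. Leaving mutant replicate 1 out gave 0 called members, as did leaving out each of the other libraries.

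Markers of other airway tissue were set beside the cartilage genes. Of 8 tested airway epithelium genes 2 rose, where 0.564% of all tested genes did: Sox2, the transcription factor of conducting airways, from 13.7 ± 0.963 to 19.8 ± 1.86 CPM (adjusted p = 0.00282, edgeR), and the claudin gene Cldn10 from 12.8 ± 0.983 to 16.9 ± 0.948 CPM (adjusted p = 0.0139). Of the 8, 4 had positive and 4 had negative log2 fold changes, the negative ones being Krt5, Foxj1, Krt15 and Trp63, named after their values were seen, and none of these passed. The 10 listed genes summed to 38.5 to 50.5 CPM in controls and 54.7 to 59.7 CPM in mutants, without overlap. The largest parts of this sum were Sox2 and Cldn10, the 2 genes already called higher. The separation of the sum is thus no further result about the list, and the sum without them was not tested. The mean log2 shift of the list, which weights the 8 tested genes equally, overlapped, at -0.30 to 0.47 in controls and 0.01 to 0.35 in mutants. The 0.47 was control replicate 3, while control replicates 1, 2 and 4 stood at -0.30, 0.06 and -0.23. In control replicate 3 Krt5 measured 4.63 CPM, against 0.106, 0.451 and 0.395 CPM in control replicates 1, 2 and 4. The 9 cartilage members summed to 106 to 117 CPM in controls and 97.5 to 119 CPM in mutants, with overlap. Most of this sum was Hapln1 and Matn4, at 48.4 ± 2.63 and 35.5 ± 1.97 CPM in controls. Mutant replicate 1 was the lowest library for the cartilage sum, at 97.5 CPM, and above every control for the airway sum, at 54.7 CPM. Its mean log2 shift was -0.34 for the cartilage members, below every control, and 0.01 for the airway list, within the control range. Of the 10 smooth muscle genes edgeR called 0. In 7 the log2 fold change was positive and in 3 it was negative. The unadjusted p (edgeR) of 4 was below 0.05, and each of these 4 was higher in the mutants. That level and direction held for 5.89% of all tested genes. Acta2, smooth muscle actin and among the 4, measured 504.6 ± 26.8 and 563.8 ± 24.9 CPM (adjusted p = 0.0558, edgeR). Mylk, a myosin light chain kinase gene and not among them, measured 410.0 ± 14.3 and 389.4 ± 32.04 CPM. Whether the amount of airway in a library moved any cartilage gene was not tested.

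**Figure D4:**
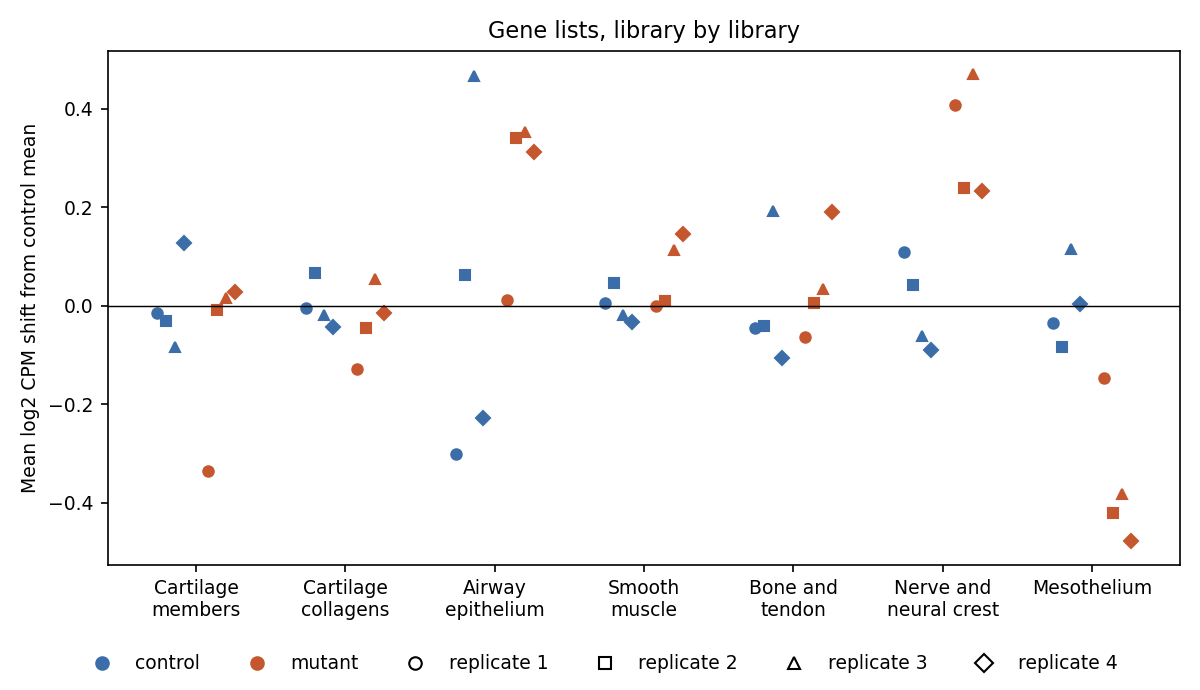
Mean log2 CPM shift of the tested genes of 7 lists from their control mean, 1 symbol per library. Mutant replicate 1 lies at -0.34 for the cartilage members. In the airway epithelium list it lies at 0.01 and the other 3 mutants lie between 0.31 and 0.35. The controls there span -0.30 to 0.47, where 0.47 is control replicate 3 and the other controls reach at most 0.06.

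Markers of skeletal tissue outside the airway were present at low levels. Among 10 bone, perichondrium and tendon genes 0 passed in edgeR and 1 had an unadjusted p below 0.05. No gene of the list was at 0 in all libraries, and the list summed to 33.1 to 39.0 CPM in controls and 34.0 to 38.6 CPM in mutants. Scx, a tendon transcription factor gene, measured 8.59 ± 2.18 and 9.19 ± 0.708 CPM, and Phex, a gene of bone mineralization, 5.19 ± 0.993 and 5.93 ± 0.763 CPM. The 9 skeletal muscle genes summed to 8.0 to 8.55 CPM in controls and 8.35 to 23.9 CPM in mutants, highest in mutant replicate 4. The muscle genes Mylpf, a myosin light chain gene, and Tnnt3, a troponin gene, were at 2.73 ± 0.316 and 2.0 ± 0.257 CPM in controls and 3.55 ± 1.11 and 2.42 ± 0.267 CPM in mutants. Of the 5 tested, 0 passed and 0 had an unadjusted p below 0.05. Of 8 esophagus, thyroid and thymus genes, Pax8 was at 0 in all libraries, Barx1 and Nkx6-1, transcription factor genes of foregut organs, were at 0.686 ± 0.287 and 1.48 ± 0.156 CPM in controls and 0.843 ± 0.215 and 1.73 ± 0.453 CPM in mutants, and the list summed to 2.85 to 3.56 CPM in controls and 2.53 to 4.22 CPM in mutants.

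Other cell types gave the following counts in edgeR, where 1.49% of all tested genes passed (0.564% higher and 0.931% lower). Of 12 nerve genes Ret rose, and of 12 red blood cell genes Hbb-bh1 rose. Of 7 distal epithelium genes Etv5 fell, and of 10 mesothelium genes Upk3b, Wt1, Gpm6a and Lrrn4 fell. The lists did not all move 1 way. The log2 fold change was positive in 9 and negative in 3 genes of the nerve list, and also of the red blood cell list. It was positive in 2 and negative in 5 distal epithelium genes, and positive in 2 and negative in 8 mesothelium genes. Of 7 tested heart genes 0 passed, with 1 at an unadjusted p below 0.05. Cardiac actin Actc1 was at 61.0 ± 14.4 and 70.1 ± 10.2 CPM. The heavy chain gene Myh6 ranged from 2.20 to 9.88 CPM in controls and from 2.42 to 33.8 CPM in mutants, highest in mutant replicate 1, the library lowest for most cartilage members. The heart list summed to 65.3 to 107 CPM in controls and 93.8 to 151 CPM in mutants, again highest in mutant replicate 1, and its part in the low cartilage values of that library was not tested. The nerve list summed to 191 to 227 CPM in controls and 190 to 231 CPM in mutants, and the mesothelium list to 332 to 355 and 259 to 299 CPM. In the nerve list 7 of 12 genes had an unadjusted p below 0.05, all higher in the mutants, where 5.89% of all tested genes did so. The mean log2 shift was 0.23 to 0.47 in mutants and -0.09 to 0.11 in controls. Sox5, Sox6 and Matn4 are also used in nerve or blood cells, and the part of these cells in their values was not tested.

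The pairwise Pearson r of the 7 tested members over the 8 libraries had a median of 0.159. It ran from -0.521 for Sox6 and Acan to 0.821 for Sox5 and Hapln1. The mean standardised log2 CPM of these members is thus not a pattern that all of them share. The genes most like that mean over the 8 libraries held no gene of the cartilage lists. The closest were Otud7b, a deubiquitinase gene (Pearson r = 0.96, Spearman rho = 0.905), Adam17, a membrane protease gene (r = 0.956, rho = 0.881), and Os9, a gene of protein quality control (r = 0.951, rho = 0.905). The next 7 were Gm16183, Cdh4, Dyrk1a, Mctp2, C2cd5, Cntnap2 and Ubap2l, with r from 0.915 to 0.934. The 10 are the highest of all tested genes over 8 libraries, 1 of which, mutant replicate 1, stood at -1.21 while the others lay between -0.16 and 0.568, so the values describe likeness only.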

How the data were processed

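The deposited table gives raw counts, made by the authors as whole read pairs per gene and library with no normalization. Per the file headers they were made with featureCounts 1.6.4, paired, with strand option 2, summing exons of GENCODE vM25 genes; reads with several places or several genes were not counted. STAR, DESeq2 and build GRCm38 appear in the submitters' processing notes. The table has 55401 genes, 55141 of them matched to a symbol.

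All 8 libraries entered 1 fit in edgeR 4.0.16 (R 4.3.3) after its expression filter, which left 15788 genes with 99.87% of the counts. It used TMM scaling, robust dispersions and quasi-likelihood F tests (two-sided), adjusted by Benjamini-Hochberg over all genes at a threshold of 0.05. CPM values are TMM-scaled; TPM was computed from counts and deposited exon lengths. Intervals of fold changes use the standard error of that test. Poisson intervals and the floor of 3 counts cover counting error only. Libraries of a group differed by 3.14 to 9.25 times the sampling variance, so none was the same library sequenced again. Whether libraries shared an embryo or an RNA sample was not tested. The fit was tested on simulated data.

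The alternatives used DESeq2 1.42.0, limma-voom (limma 3.58.1), other scaling and filters, a replicate block, a Y-linked covariate and leaving out each library; the fit in the 6 libraries with Y-linked counts was added after seeing the data. Members, lists and tests were chosen with earlier results of these data known. Named from the lists were all called genes, otherwise the 3 (related cartilage lists) or 2 (other lists) with the highest CPM, and the 10 genes most like the members. Acan, Matn1, Col10a1, Ucma, Nkx3-2 and Pax8 are also named for their low counts, the last 4 chosen after their values were seen. Promoters are from RefSeq, GRCm38.p6.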

Additional observations from a re-analysis of the deposited data

Results flagged for a closer look

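Among 36 named genes, each checked in both groups of 4 libraries, 72 groups were checked. Of these, 5 held 1 library far from the other 3. Chance alone flags about 1 in 20 groups, and 5 of 72 is near that share. In the mutants, mutant replicate 1 was low for Matn4, at 32.6 CPM against 40.0 CPM in the nearest library, and for Col9a2, at 65.5 CPM against 73.3 CPM. Sox2 was low in mutant replicate 2, at 17.05 CPM against 20.5 CPM. In the controls, control replicate 2 was high for Etv5, at 394.6 CPM against 380.6 CPM, and low for Wt1, at 17.5 CPM against 20.4 CPM.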

How the results depend on the processing

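Under all 18 alternatives the count of called members stayed at 0, and each tested member kept the sign of its log2 fold change wherever it was tested; Acan and Matn3 were not tested with the filter of 1 CPM in 4 libraries. The ranges of the log2 fold change over the alternatives were -0.32 to -0.14 for Sox5, -0.21 to -0.15 for Sox6, 0.48 to 1.03 for Acan, -0.11 to -0.02 for Hapln1, -0.88 to -0.07 for Matn3, 0.09 to 0.20 for Matn4 and -0.57 to -0.34 for Cnmd, and the lowest adjusted p was 0.086, for Matn4. Of the related cartilage genes, 2 were called with no low-count filter (Fmod and Col11a2) and 1 with the replicate block (Fmod), against 0 otherwise; the cause was not tested.

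The count of 236 called genes over the whole table was 361 with DESeq2, 791 with no low-count filter, 142 with non-robust estimation, 97 with the Y-linked covariate, 49 in the 6 libraries with Y-linked counts, and 96 to 479 when each library was left out. It was 100, 121 and 96 without control replicates 1, 2 and 3, and 118 and 479 without mutant replicates 2 and 4, in fits with fewer samples. With the replicate block it was 541. Same-numbered libraries correlated from 0.05 to 0.248 in their deviations from the group means, and other pairs from -0.283 to 0.176. From the control side, 2 of 4 controls matched their own number best. From the mutant side, mutant replicates 1, 2 and 3 did so, at 0.217, 0.072 and 0.248, and mutant replicate 4 matched control replicate 3 best (0.122). The labels do not pair the libraries, and the main fit was unpaired. Whether same-numbered libraries shared a batch or litter was not tested. Depth limits Acan, Matn3, Matn1 and Snorc most, with at most 55, 25, 2 and 1 counts in any library.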
